A study of Mus musculus with 20 samples.

Results

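Natural antibodies against mannose-containing glycans were measured in serum of BALB/c mice with a printed glycan array, in which synthetic glycans are bound to glass by short spacers. The members are the printed glycans of 2 or more sugar residues whose written structure holds an α- or β-linked mannose and no sulfate, sialic acid or Fucα1-2 group. This rule kept 8 of the 419 printed compounds. The 2 asialo N-glycans on the array are written in shorthand (M, read here as mannose; GN, as N-acetylglucosamine; A, as galactose), so the rule does not reach them, and they were set beside the members as the compared N-glycans. The 4 single mannose residues on the array fall outside the rule, and β-mannose on the same spacer (018) served as the reference of the mannobioses.

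Each serum was taken from a female or male BALB/c mouse of 10 weeks, kept specific pathogen free, and was diluted 1:15 and incubated on 1 array. IgM and IgG were detected together with a biotin-labelled goat antibody and streptavidin carrying Cy5. They cannot be told apart in the signal, and this is 1 inbred strain. Of the 20 deposited arrays (13 female, 7 male), those of mice BALB/c-44 and BALB/c-45, both female, hold identical intensities in 2664 of 2664 spots and were counted as 1 mouse, which left 19 mice, 12 females and 7 males. The signal of a glycan in a mouse is the median of its 6 spots in relative fluorescence units (RFU), with no scaling between arrays, and a signal of at least 4000 RFU was taken as positive. The labels name the mice by number only, and p-values measure the spread between these sera.

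Mannose is the sugar at the heart of the N-glycans of glycoproteins. The common core is a β-linked mannose on a pair of GlcNAc residues, with 1 further mannose α1-3-linked and 1 α1-6-linked to it. Early in the secretory pathway the core still carries more mannose residues (oligomannose type), and later these are trimmed and replaced by GlcNAc, galactose and sialic acid (complex type). Mannose chains also cover yeasts and many other microbes, where soluble and cellular lectins such as mannose-binding lectin and the macrophage mannose receptor bind them.

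The 8 members fall into 4 structural roles. The first role is that of the 4 mannobioses, which differ only in the carbon of the inner β-mannose that carries the outer α-mannose. They are Manα1-2Manβ-sp4 (119), Manα1-3Manβ-sp4 (120), Manα1-4Manβ-sp4 (121) and Manα1-6Manβ-sp4 (122). The second role is that of the branched oligomannose glycans. Man3, Manα1-6(Manα1-3)Manβ-sp4 (258), joins the α1-3 and α1-6 arms on 1 mannose as in the N-glycan core. Man5, Manα1-6(Manα1-3)Manα1-6(Manα1-3)Manβ-sp4 (495), repeats that branch on the α1-6 arm. The third role is a mannose capped with GlcNAc, GlcNAcβ1-3Manβ-sp4 (114). The fourth is the inner core disaccharide Manβ1-4GlcNAcβ-sp4 (123).
The compared N-glycans share 1 biantennary core and differ in the cap of the antennae. Glycan 505, (GN-M)2-3,6-M-GN-GNβ-sp4, ends in GlcNAc. Glycan 504, (A-GN-M)2-3,6-M-GN-GNβ-sp4, ends in galactose. Glycan 627, (Sia2-6A-GN-M)2-3,6-M-GN-GNβ-sp4, is its sialylated form. All 8 members stand on the same glycyl spacer, sp4, which 73 printed compounds carry, a feature the rule did not use.

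The arrays differed in overall signal, and the comparisons were also made within 2 sets of them. The sets were told apart by the ratio of 2 peptide compounds (902 over 900) at its widest gap. The ratio was 0.63 to 1.86 on the 9 arrays of set 1 (7 females, 2 males) and 0.01 to 0.06 on the 10 arrays of set 2 (5 females, 5 males). No label or file header names this split. The median signal over all compounds of an array was 126 to 412 RFU in set 1 and 603 to 1504.5 RFU in set 2, and the buffer spots, printed with no glycan, had medians of 93.5 to 644 RFU and 309 to 2044.5 RFU in the same order. On the negative control trehalose-ethanolamine (629) the median was 238.5 RFU ± 123 (MAD, n = 19 mice).

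Few signals on the mannose glycans reached the positive threshold. Of 152 combinations of a mouse and a member, 5 reached 4000 RFU, in 5 different mice and on 3 of the 8 members. All 5 were in array set 2 and 0 in set 1. Of all 419 compounds, 24 to 52 were positive per array in set 1 and 51 to 90 in set 2. Of all printed compounds, 54.9% were positive in 1 mouse or more, and among the other 65 compounds on the sp4 spacer 29 were. No member had a median at or above the threshold. The median over the 8 members of their median signal was 909.5 RFU, against 720 RFU over the other sp4 compounds and 635.5 RFU over all 419. The median of their highest mouse was 3251.2 RFU, against 3667 RFU and 4796 RFU. These medians are given as a description, with no test.

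**Figure D1:**
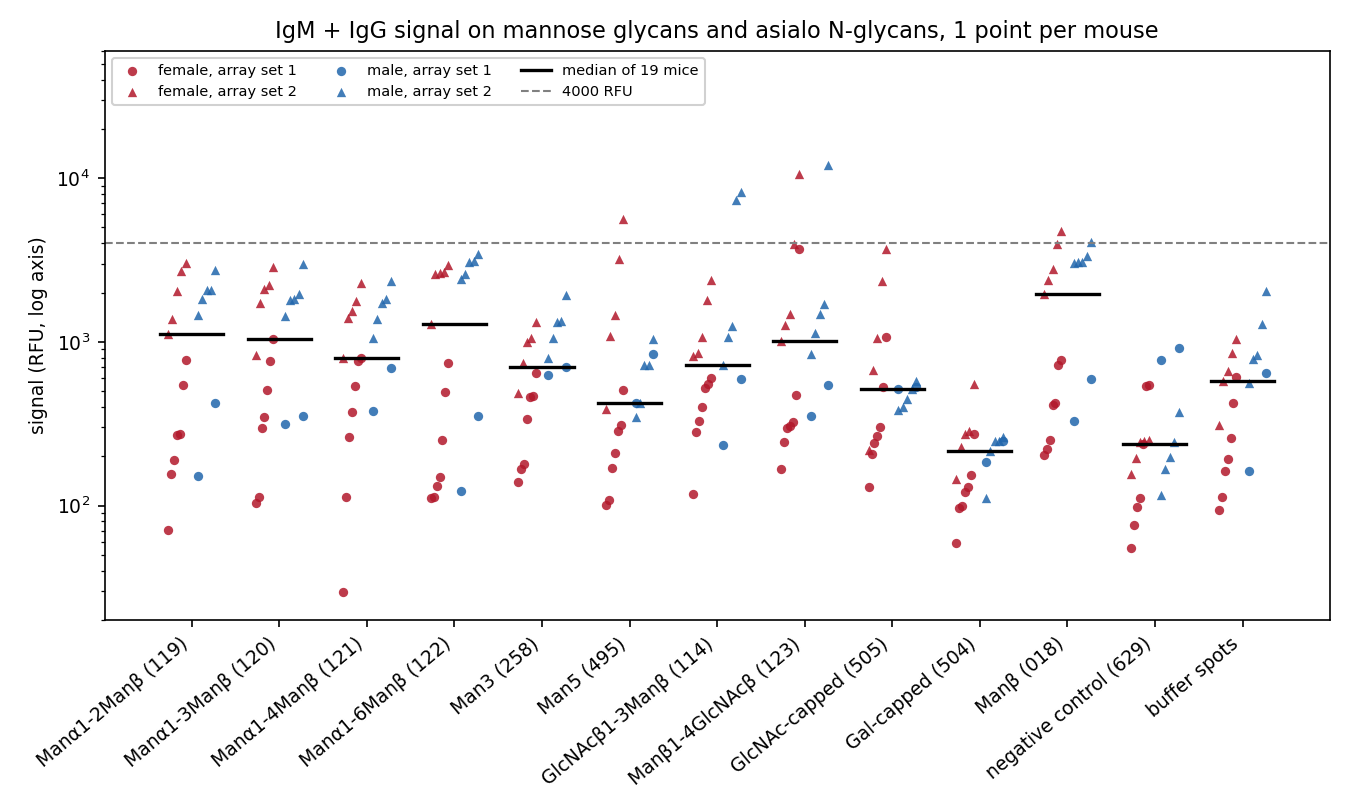
Signal in RFU (log axis) of the 8 members, the GlcNAc-capped and the Gal-capped N-glycan, β-mannose, the negative control and the buffer spots, 1 point per mouse, with females left of males, circles for array set 1 and triangles for array set 2, bars at the median of 19 mice and a dashed line at 4000 RFU. Of the members, 3 (114, 123 and 495) have mice above the line, and most circles lie under the triangles of the same glycan.

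The inner core disaccharide Manβ1-4GlcNAcβ (123) had the brightest single signal of all members. Over the 19 mice it ran from 167.5 to 12079.5 RFU with a median of 1018 RFU ± 691.5 (MAD). It was positive in 2 of 19 mice (10.5%, exact 95% interval 1.3 to 33.1%), the female mouse BALB/c-90 at 10586 RFU and the male mouse BALB/c-104 at 12079.5 RFU.
The signals were 12.93 and 13.49 times the median compound of their own array, where the disaccharide ranked 25th and 28th of 419. The 6 spots of mouse BALB/c-90 lay between 9649 and 13065 RFU, and those of mouse BALB/c-104 between 9222 and 23047 RFU, so that every spot was above the threshold. Just below the threshold lay mouse BALB/c-70, a female at 3975.5 RFU with spots of 3574 to 6128 RFU, and mouse BALB/c-20, a female at 3685 RFU.
The spots of mouse BALB/c-20 did not agree, with 2 of them at 17 and 19 RFU and the highest at 18187 RFU. The next mouse below these 4 was at 1709.5 RFU. The high values were therefore those of 4 separate mice, 3 females and 1 male, with a gap to the other 15.

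On GlcNAcβ1-3Manβ (114) the median was 717 RFU ± 349.5 (MAD) and the range 118 to 8279 RFU. It was positive in 2 of 19 mice (10.5%, exact 95% interval 1.3 to 33.1%), both of them males, mouse BALB/c-48 at 8279 RFU and mouse BALB/c-106 at 7343.5 RFU. The other 17 mice reached at most 2372 RFU. The spots of mouse BALB/c-48 were close together, at 5848 to 9722 RFU, against 835.5 RFU for the buffer spots of that array. Those of mouse BALB/c-106 spread from 1758 to 11208 RFU, on the array with the brightest buffer spots of all, 2044.5 RFU. No mouse was positive on both 114 and 123.

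**Figure D2:**
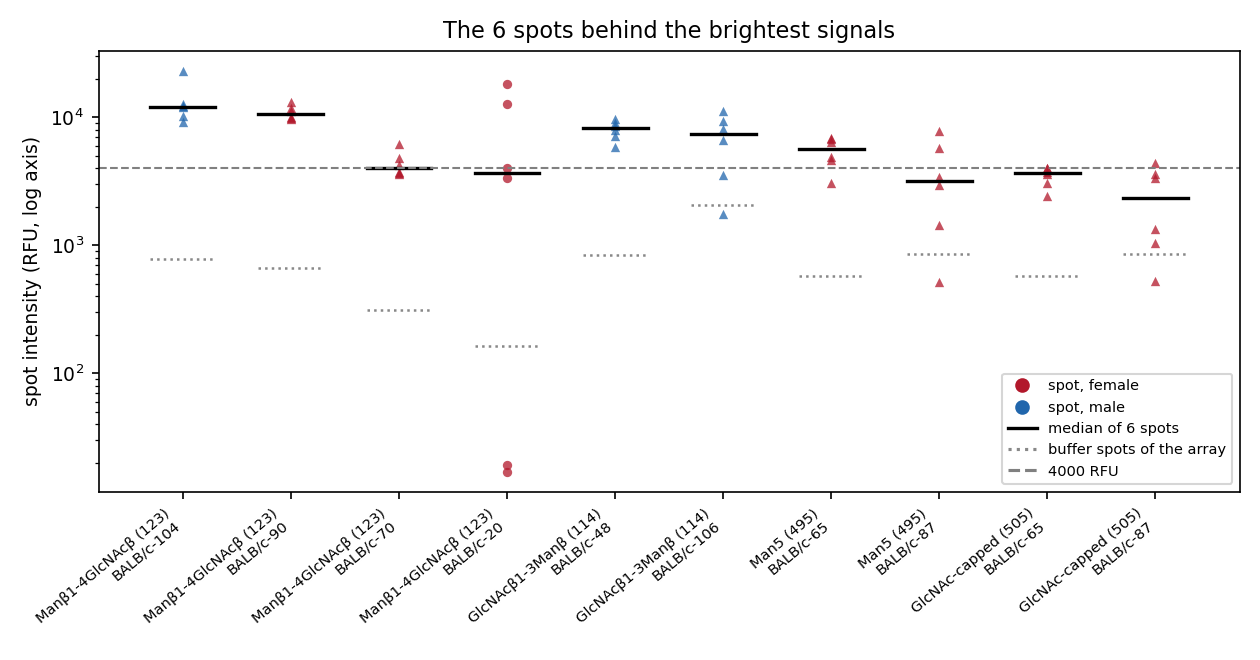
Intensity of each of the 6 spots (RFU, log axis, circles for array set 1 and triangles for array set 2) for the brightest combinations of glycan and mouse, with the median of the 6 spots as a black bar, the buffer spots of the same array as a dotted bar and 4000 RFU as a dashed line. The spots of mice BALB/c-104 and BALB/c-90 on Manβ1-4GlcNAcβ all lie between 9222 and 23047 RFU, while those of mouse BALB/c-20 run from 17 to 18187 RFU.

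No mouse was positive on any of the 4 mannobioses or on Man3 (0 of 19 mice each, exact 95% interval 0 to 17.6%). Over all mice the mannobiose medians were 1109 RFU ± 918.5 (MAD) for the α1-2-linked, 1033.5 RFU ± 735 for the α1-3-linked, 801 RFU ± 579.5 for the α1-4-linked and 1288.5 RFU ± 1176.5 for the α1-6-linked form. The 6 differences between them, tested in the same mouse, were small against their spread. The largest, α1-2 over α1-3, was a mean log2 difference of -0.14 (95% interval -0.45 to 0.16, adjusted p = 0.58, sign-flip permutation test over 24 pairs of glycans). The widest interval, α1-4 over α1-6, ran from -0.56 to 0.46.
The sets of arrays were then taken apart. In array set 2 the α1-6-linked mannobiose ran from 1288.5 to 3454 RFU with a median of 2661.5 RFU, and it was the brightest of the 4 in 8 of 10 mice. The α1-4-linked form ran from 795 to 2345.5 RFU with a median of 1635.8 RFU, and was the dimmest in 8 of 10 mice. The α1-2-linked form (median 2047.8 RFU, 1109 to 3048.5 RFU) and the α1-3-linked form (median 1892.2 RFU, 831.5 to 3005 RFU) lay between them.
The ranges overlapped, but within a mouse the order was regular. The α1-4-linked mannobiose was below the α1-6-linked one in 10 of 10 mice (log2 difference -0.76, 95% interval -1.01 to -0.55, a 1.69-fold difference, adjusted p = 0.0059). The α1-2- and the α1-3-linked forms each exceeded the α1-4-linked one in 9 of 10 mice, by 0.34 (0.21 to 0.47, adjusted p = 0.0089) and 0.28 (0.10 to 0.47, adjusted p = 0.016). They fell below the α1-6-linked form by 0.42 (adjusted p = 0.015) and 0.48 (adjusted p = 0.0089). The neighbours α1-2 and α1-3 did not differ beyond their spread (0.06, 95% interval -0.13 to 0.25, adjusted p = 0.56).

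In array set 1 none of the 6 differences passed, and the α1-6-linked form was the brightest in 1 of 9 mice. There its median was 149 RFU (111 to 742.5 RFU), and it was above the buffer spots in 2 of 9 mice in set 1, against 10 of 10 in set 2. The α1-4-linked over the α1-6-linked form was 0.74 there (-0.05 to 1.55, adjusted p = 0.18). Whether the order differed between the sets was not tested, and the set of arrays was defined from the data.

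Against β-mannose alone (018), the outer α-mannose came with less signal in each of the 4 mannobioses. Single α-mannose on the same spacer (017), at a median of 1386 RFU ± 709.5 (MAD), was not tested against the mannobioses. β-Mannose had a median of 1959.5 RFU ± 1375.5 (MAD) and was positive in 2 of 19 mice, the male BALB/c-106 at 4063.5 RFU and the female BALB/c-65 at 4753 RFU. Over the 19 mice the α1-2-linked mannobiose was 0.64 lower on the log2 scale than β-mannose (95% interval of the difference -0.89 to -0.39, lower in 17 of 19 mice, adjusted p = 0.00042). For the α1-3-linked form the difference was -0.50 (-0.82 to -0.16, adjusted p = 0.023), for the α1-4-linked form -0.60 (-0.96 to -0.23, adjusted p = 0.015) and for the α1-6-linked form -0.55 (-0.92 to -0.18, adjusted p = 0.015).
In array set 2 alone the first 3 held, with 10 of 10 mice below β-mannose for the α1-3- and the α1-4-linked forms, and the α1-6-linked form lay at -0.27 (-0.57 to 0.05, adjusted p = 0.11). In set 1 none of the 4 passed (adjusted p = 0.056, 0.63, 0.75 and 0.12). With the mean of the 6 spots in place of the median, the α1-3-, α1-4- and α1-6-linked forms missed the threshold (adjusted p = 0.18, 0.069 and 0.069).

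Man3 (258), which carries both arms, was lower in array set 2 than either mannobiose that holds 1 of them, while over all mice the differences did not pass. Its median was 706.5 RFU ± 348.5 (MAD), and its range of 138.5 to 1920.5 RFU was the narrowest of the members. Over all mice it differed from the α1-3-linked mannobiose by -0.41 (-0.88 to 0.05, adjusted p = 0.16) and from the α1-6-linked one by -0.36 (-1.01 to 0.30, adjusted p = 0.44). In array set 2 it was lower than both in 10 of 10 mice, by 0.85 on the log2 scale below the α1-3-linked form and by 1.33 below the α1-6-linked form (adjusted p = 0.0059 each). The last is 2.51-fold on the mean log2 difference. The medians there were 1057.2 RFU for Man3 and 2661.5 RFU for the mannobiose. Of the mannobiose signals, only the lowest, 1288.5 RFU, lay within the Man3 range of 487 to 1920.5 RFU. In set 1 the mean differences were 0.08 and 0.72, and neither passed.

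Man5 (495), the oligomannose glycan with 2 branch points, had the lowest median of the 8 members, 422 RFU ± 299 (MAD), and 1 positive mouse of 19 (5.26%, exact 95% interval 0.133 to 26%). This was the female mouse BALB/c-65 at 5618 RFU, with 6 spots from 3067 to 6851 RFU. The second highest was the female mouse BALB/c-87 at 3194 RFU, with spots from 512 to 7777 RFU, and the other 17 mice lay between 100.5 and 1468.5 RFU. Man5 over Man3 gave a mean log2 difference of -0.24 (-0.78 to 0.30, adjusted p = 0.58), with Man5 higher in 7 of 19 mice. In mouse BALB/c-65 Man3 was at 1003.5 RFU and in mouse BALB/c-87 at 1059.5 RFU, near the median of set 2 for that glycan, 1057.2 RFU. Neither of these sera stood out on the smaller branch.

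The N-glycan with GlcNAc caps (505) was highest in the same 2 mice as Man5, and the one with galactose caps (504) was lower than the GlcNAc-capped form, Man3 and Man5. The GlcNAc-capped glycan had a median of 513.5 RFU ± 212 (MAD), from 129.5 to 3667 RFU, and was positive in 0 of 19 mice. Its highest mice were again mouse BALB/c-65, at 3667 RFU with spots of 2410 to 4025 RFU, and mouse BALB/c-87, at 2356 RFU. It differed from Man5 by -0.07 on the log2 scale (-0.50 to 0.37, adjusted p = 0.88) and from Man3 by -0.31 (-0.80 to 0.18, adjusted p = 0.36). In array set 2 it was below Man5 in 9 of 10 mice (-0.50, -0.77 to -0.23, adjusted p = 0.012), and in set 1 the difference was 0.41 (adjusted p = 0.44).
The Gal-capped glycan had a median of 215.5 RFU ± 62.5 (MAD), from 59 to 552.5 RFU. It was lower than the GlcNAc-capped glycan in 19 of 19 mice (log2 difference -1.42, 95% interval -1.75 to -1.09, a 2.67-fold difference, adjusted p = 0.00012). It was lower than Man3 in 19 of 19 mice (-1.73, -2.08 to -1.37, adjusted p = 0.00012) and than Man5 in 18 of 19 (-1.49, -2.01 to -0.96, adjusted p = 0.00032). The first 2 of these differences passed in both sets of arrays (adjusted p = 0.047 in set 1 and 0.0059 in set 2), while the one from Man5 did not pass in set 1 (-0.85, adjusted p = 0.11).

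The signal of the Gal-capped glycan lay below the buffer spots, so these folds depend on the background of the array. It exceeded the buffer spots of its array in 3 of 19 mice. The mean log2 difference from them was -1.25 (sign-flip test, adjusted p = 0.00061 over all compounds). From the negative control the glycan differed by -0.30 (-0.72 to 0.12, adjusted p = 0.19 over all compounds), by -0.83 in set 1 and 0.18 in set 2. The GlcNAc-capped glycan itself exceeded the buffer spots in 10 of 19 mice. Its mean log2 difference from them was 0.16 (sign-flip test, adjusted p = 0.65 over all compounds). With each signal raised at least to the buffer spots of its array, the difference from the GlcNAc-capped glycan was -0.61 (adjusted p = 0.0099). That from Man3 was then -0.58 (adjusted p = 0.0014) and that from Man5 -0.50 (adjusted p = 0.0099). Neither glycan of the pair exceeded its buffer level in 9, 3 and 7 of 19 mice, in the same order. Raising left no difference in those mice, so the raised means come from the remaining ones. Sialic acid on the galactose (627) came with no further difference that passed: the median was 193 RFU ± 88.5 (MAD), and sialylated over Gal-capped was -0.03 (-0.28 to 0.22, adjusted p = 0.88). In 16 of 19 mice both were at or below the buffer spots, so a difference between them was not detectable at this level of signal.

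**Figure D3:**
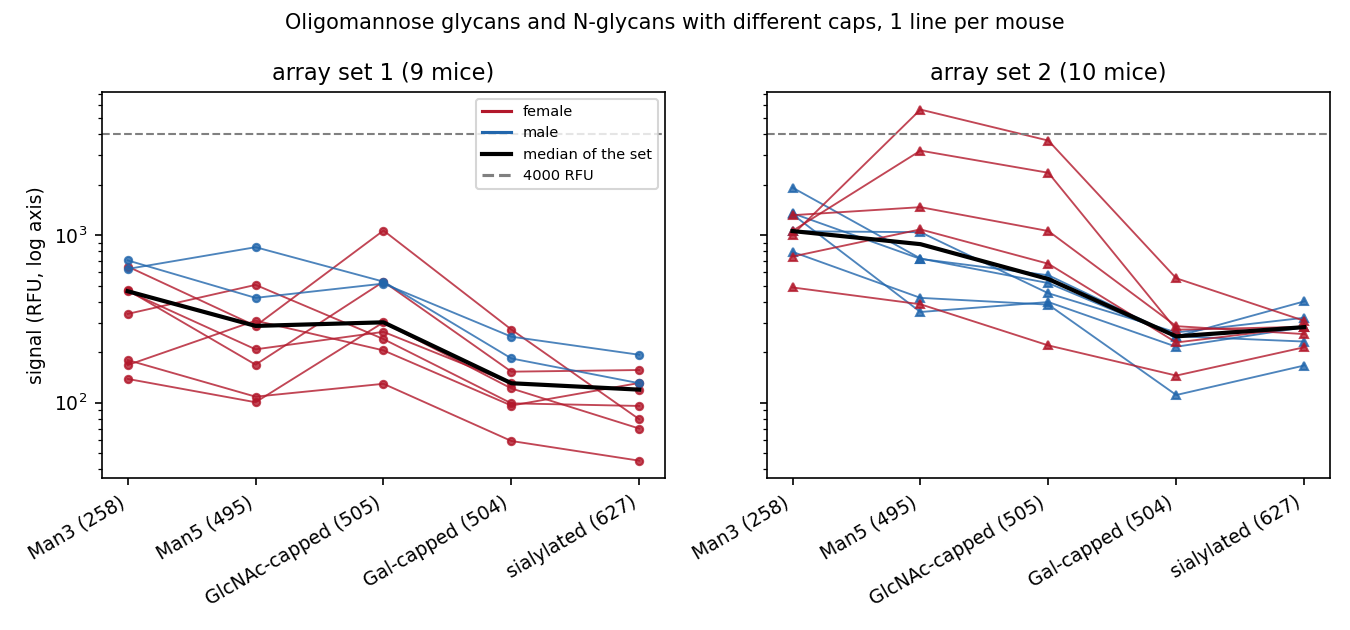
Signal in RFU (log axis) of Man3, Man5 and the N-glycans with GlcNAc, galactose and sialylated galactose caps, 1 line per mouse (females red, males blue), in array sets 1 and 2, with the median of each set in black and 4000 RFU as a dashed line. Every line drops between the GlcNAc-capped and the Gal-capped glycan, and mice BALB/c-65 and BALB/c-87 stand out on Man5 and the GlcNAc-capped glycan in set 2.

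Smaller pieces of the core were set against their own parts. Manβ1-4GlcNAcβ (123) was compared with chitobiose, GlcNAcβ1-4GlcNAcβ (117), in which GlcNAc takes the place of the mannose, and with single GlcNAc (022). On the spacer of the members, chitobiose was the brightest compound of these comparisons, with a median of 6753 RFU ± 4951 (MAD), from 138 to 60854.5 RFU, and 11 positive mice of 19. The array also holds this disaccharide on a different spacer and on asparagine, which were not compared. The paper lists a lower signal for the former and a higher one for the latter. The mannose form was lower in 15 of 19 mice (log2 difference -1.76, 95% interval -3.11 to -0.38, 3.38-fold on the mean, adjusted p = 0.043). All 6 chitobiose spots of mouse BALB/c-48 were saturated in part of their pixels, so the difference in that mouse is a lower bound. Without this mouse the mean difference was -1.57 (-2.94 to -0.17, 2.97-fold, adjusted p = 0.074). In mouse BALB/c-104, where the mannose form was at its highest, chitobiose was at 318 RFU. In mouse BALB/c-90, the other mouse positive on the mannose form, it was at 11704 RFU, against 10586 RFU on the mannose form. In mouse BALB/c-20, at 3685 RFU on the mannose form, chitobiose was at 8870 RFU. This call was lost when any 1 of 12 mice was left out (BALB/c-17, BALB/c-20, BALB/c-37, BALB/c-38, BALB/c-42, BALB/c-48, BALB/c-56, BALB/c-82, BALB/c-87, BALB/c-88, BALB/c-106 or BALB/c-107), with adjusted p up to 0.082. It did not pass within either set of arrays (adjusted p = 0.056 and 0.41).
Over single GlcNAc the difference was 0.72 (0.03 to 1.41, adjusted p = 0.088), with 123 higher in 11 of 19 mice. The GlcNAc-capped N-glycan (505), whose core holds the chitobiose unit next to the spacer, was lower than chitobiose on the same spacer in 15 of 19 mice. The log2 difference was -2.74 (-3.92 to -1.55, 6.69-fold on the mean, adjusted p = 0.0015). Without mouse BALB/c-48 it was -2.50 (-3.63 to -1.36, 5.66-fold, adjusted p = 0.0026). This difference passed in array set 2 (adjusted p = 0.038) but not in set 1 (adjusted p = 0.056). GlcNAcβ1-3Manβ (114) differed from the α1-3-linked mannobiose, which has mannose in place of the GlcNAc, by -0.03 (-0.52 to 0.47, adjusted p = 0.9). From β-mannose alone it differed by -0.53 (-1.03 to -0.03, adjusted p = 0.088), and without mouse BALB/c-48, its brightest, that difference passed (-0.64, adjusted p = 0.033). Of the 24 pairs, 9 passed over all mice, 2 in array set 1 alone and 15 in array set 2 alone.

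**Figure D4:**
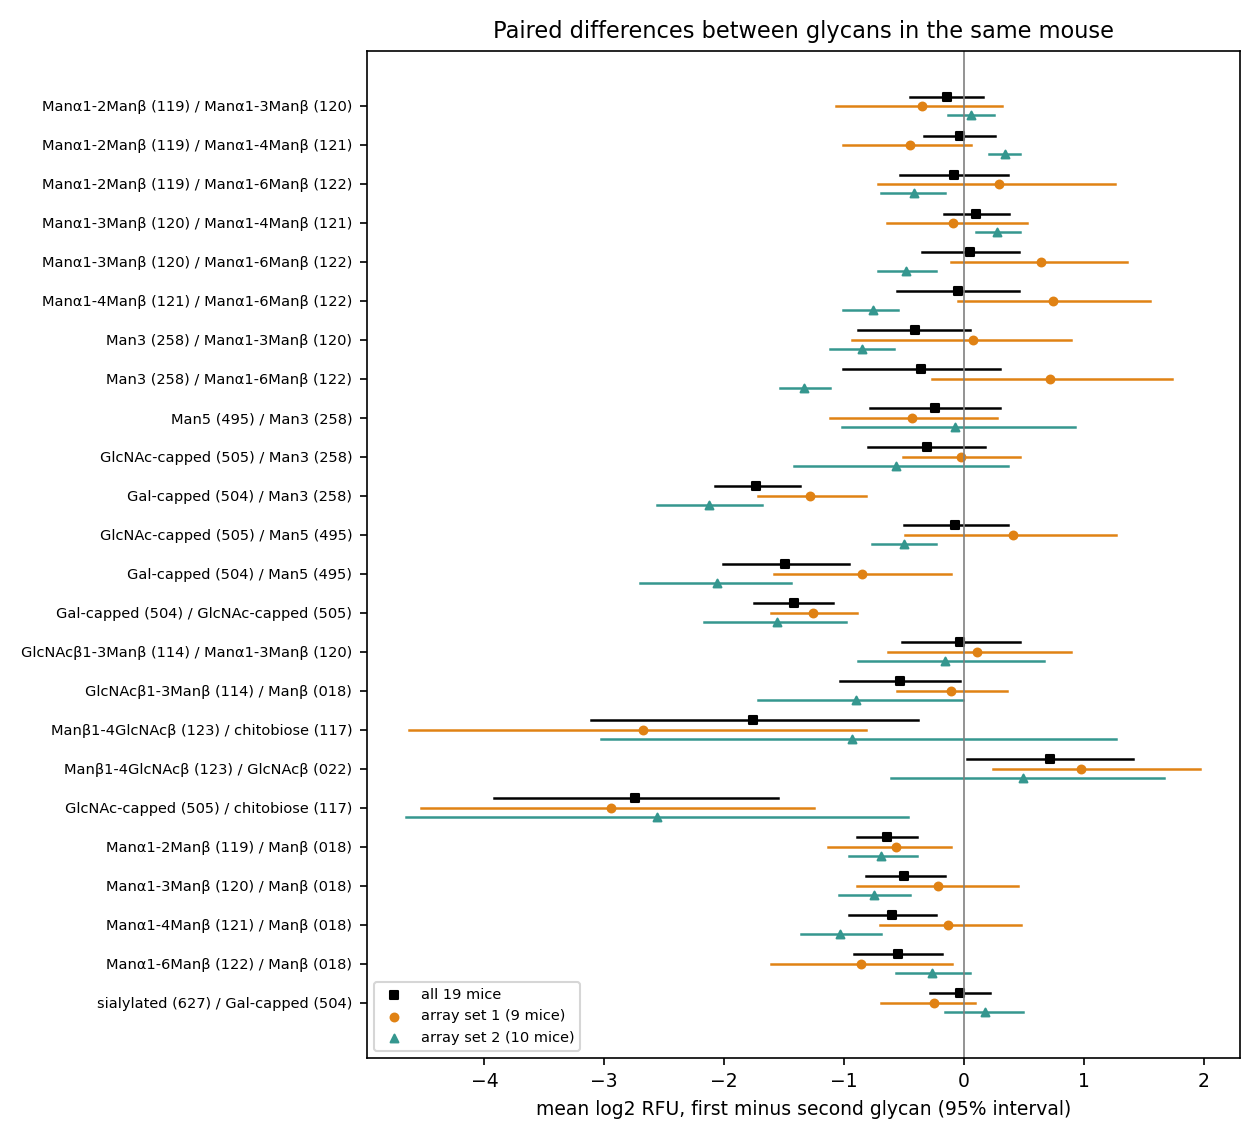
Mean difference in log2 RFU, first minus second glycan in the same mouse, with its 95% interval, for the 24 compared pairs, over all 19 mice (black squares), array set 1 (orange circles) and array set 2 (green triangles). The differences of the Gal-capped glycan from Man3 and from the GlcNAc-capped glycan lie below 0 in both sets, while those between mannobioses lie on opposite sides of 0 in several pairs.

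Against the negative control, which carries no mannose, each of the 8 members was brighter over the 19 mice. The mean log2 difference ran from 1.19 for Man5 (0.41 to 1.97, adjusted p = 0.009) to 2.10 for Manβ1-4GlcNAcβ (1.14 to 3.07, adjusted p = 0.0005), and the adjusted p over all 418 other compounds was at most 0.011 for the members. Of these 418 compounds, 66.7% were brighter at adjusted p under 0.05, and the 8 members were among them. A brighter signal than the control was thus common on this array.
In array set 2 each member exceeded the control in 10 of 10 mice by 2.24 to 3.64. In set 1 none of the 8 passed, and the differences ran from -0.28 to 0.69. The control itself was at 55 to 914 RFU in set 1 and 115.5 to 375 RFU in set 2. It exceeded the buffer spots of its array in 5 of 9 mice in set 1 and in 0 of 10 in set 2. Against the buffer spots of the same array, 7 of 8 members were brighter, by 0.47 for Man3 to 1.15 for Manβ1-4GlcNAcβ, against 41.5% of all 419 compounds, with p-values adjusted over all of them. Man5 did not pass (0.23, adjusted p = 0.49). In set 1, 27 of 72 member signals were at or below the buffer spots, and in set 2, 9 of 80.

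Of 16 correlations between a member and the buffer spots across mice (8 members in each set of arrays), 2 passed. Within array set 2 the correlation with the buffer spots (log2 scale, n = 10 mice) was highest for Man3 (Pearson's r = 0.93, permutation p = 0.00017, adjusted p = 0.0027, Spearman's rho = 0.89, p = 0.00096). It was next highest for the α1-6-linked mannobiose (r = 0.85, permutation p = 0.00074, adjusted p = 0.0059, rho = 0.85, p = 0.0028). Without the 2 arrays farthest from the median of the buffer spots, r was 0.77 and 0.68.
The lowest values in set 2 were those of Manβ1-4GlcNAcβ (r = -0.26) and Man5 (r = 0.09). No other of the 16 tests passed on Pearson's r, and on Spearman's rho the α1-3-linked mannobiose in set 1 also did (rho = 0.87, exact permutation p = 0.0045, adjusted p = 0.024). The median r over the members was 0.54 in set 1 and 0.70 in set 2, against 0.25 and 0.37 over all 419 compounds. The part of the buffer level in the differences between mice was not tested.

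Among themselves, the members and the 2 N-glycans varied together in some pairs. Of 90 correlations (45 pairs in each set of arrays), 1 passed in set 1 and 7 in set 2. Man5 and the GlcNAc-capped N-glycan had the highest one in set 2 (r = 0.96, permutation p = 5e-05, adjusted p = 0.0036, rho = 0.92, n = 10 mice). With each signal taken relative to the median compound of its array, r was 0.95 (adjusted p = 0.021) and rho 0.77, and this was the only pair that passed. Without the 2 mice farthest from the median of Man5, r of the signals not taken relative to the array was 0.83. The relative r was not computed without them.
In set 1 the same pair did not pass. The α1-2- and α1-4-linked mannobioses (r = 0.93, adjusted p = 0.0036), the α1-3- and α1-4-linked forms (r = 0.88, adjusted p = 0.013), the α1-2- and α1-3-linked forms (r = 0.87, adjusted p = 0.013) and the α1-6-linked form with Man3 (r = 0.88, adjusted p = 0.0058) also passed in set 2, but not relative to the array median. The Gal-capped glycan followed Man5 (r = 0.83, adjusted p = 0.026) and the GlcNAc-capped glycan (r = 0.81, adjusted p = 0.046) in set 2, and the GlcNAc-capped glycan in set 1 (r = 0.91, adjusted p = 0.0058). These relations were examined after the values had been seen.

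**Figure D5:**
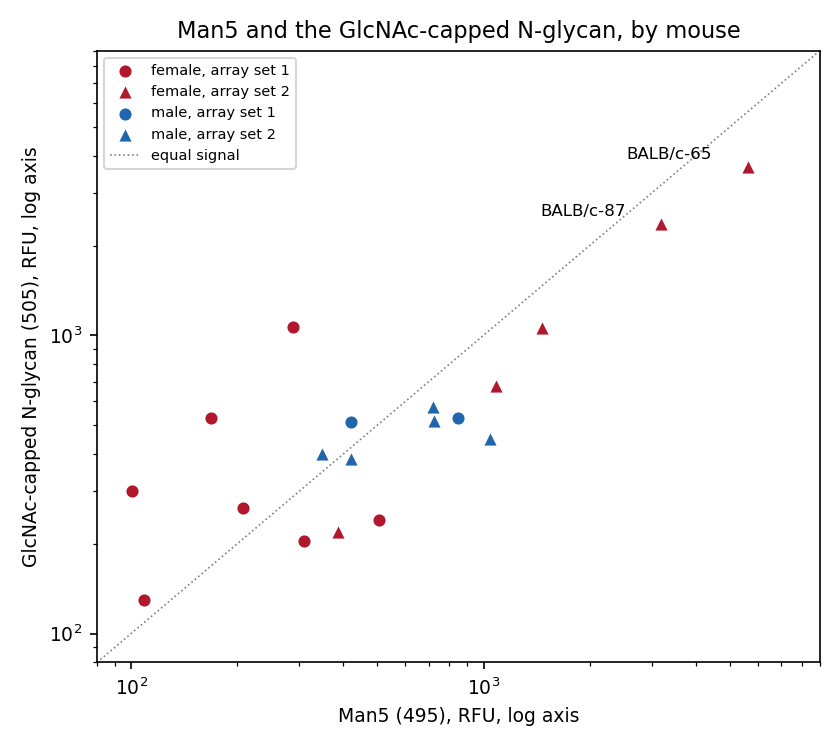
Signal on the GlcNAc-capped N-glycan (505) against that on Man5 (495) in the same mouse, both in RFU on log axes, with females red, males blue, circles for array set 1, triangles for array set 2 and a dotted line of equal signal. Mice BALB/c-65 and BALB/c-87 are highest on both glycans, and all but 1 of the triangles lie below the line of equal signal.

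Between the sexes no member differed past the adjusted threshold. Over all 419 compounds limma called 1.67% (7 compounds) at adjusted p under 0.05, and 0 of the 8 members. At an unadjusted p under 0.05 it called 1 member, Man3, against 17.4% of all compounds. The exact permutation test of the sexes called 0 members adjusted and 1 unadjusted, against 16.5% of all compounds unadjusted. In the 12 females Man3 ran from 138.5 to 1315 RFU (median 478.2 RFU, MAD 282.8), and in the 7 males from 628 to 1920.5 RFU (median 1055 RFU, MAD 294.5). The ranges overlapped, and the log2 difference, female minus male, was -1.16 (95% interval -2.28 to -0.04, adjusted p = 0.28). With the set of arrays as a term it was -0.76 (adjusted p = 0.48).
All 8 members had a lower mean in females, as did 91.9% of all compounds. The median difference over the members was -0.90, against -0.75 over all compounds, and the buffer spots differed by -1.09. With the set of arrays as a term, the medians were -0.11 and -0.27. Females made up 7 of 9 arrays in set 1 and 5 of 10 in set 2.
For Man5 the sexes differed in opposite directions in the sets, by -1.52 in set 1 and 1.42 in set 2 (female minus male, not tested), the set that holds mice BALB/c-65 and BALB/c-87, both female. Of the 5 positive combinations, 2 were in females and 3 in males.
The 24 paired differences did not differ between the sexes past the adjusted threshold (exact permutation test, 0 of 24 adjusted and 2 unadjusted). Both had Man3 as the second glycan. GlcNAc-capped over Man3 was 0.16 in females and -1.12 in males (female minus male 1.28, exact permutation p = 0.0041, adjusted p = 0.054), and within the sets of arrays 1.22 (adjusted p = 0.13). Gal-capped over Man3 was -1.39 in females and -2.31 in males (0.92, exact permutation p = 0.0045, adjusted p = 0.054), and within the sets 0.72 (adjusted p = 0.13).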

How the data were processed

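The authors read each array at 1 wavelength (ScanArray Express 4.00). The deposited values of a spot are its intensity (mean of its pixels on a linear scale), the local background, the intensity minus background and the percent of saturated pixels. Spots flagged as not found (14.9 to 23.7% of a member's 114 spots) were kept. Their share was 14% for the GlcNAc-capped, 36.8% for the Gal-capped and 41.2% for the sialylated N-glycan, and 36% for the negative control. No member spot was saturated, while the 6 chitobiose spots of mouse BALB/c-48 were in part. The deposited median column over all mice was not used. Structures were matched by compound number, and no scaling between arrays was applied, since the file headers list only a LOWESS normalization, which needs a second channel. The number of arrays limits the precision.

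Values were raised to at least 100 RFU before log2. Pairs, and members against the negative control, were tested with 100000 sign flips (exact under 10 mice; two-sided; smallest p 1e-05; intervals by inversion). Sexes were tested with limma 3.58.1 in R 4.3.3 across 419 compounds and with exact permutation over 50388 assignments (9072 within sets of arrays), two-sided. Adjusted p-values follow Benjamini and Hochberg. The sign-flip test with its interval and limma were tested on simulated normal values, without differences between arrays or sets of arrays. The exact permutation of the sexes and the correlations were not. The text names all members, their controls and parts. Members, pairs and tests were chosen with earlier results of these data known. Python 3.11.15, numpy 2.4.6, pandas 2.3.3 and scipy 1.17.1 were used. Alternatives covered spot summary, background, normalization, log offset, threshold, identical arrays, sets of arrays and leaving out each mouse. All compounds as the family, the 2 N-glycans in it, buffer spots as the control (also over all compounds), chitobiose without its saturated mouse, correlations between members, and each set alone for the negative control and the positive mice were added after seeing the data.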

Additional observations from a re-analysis of the deposited data

Results flagged for a closer look

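One signal stood far from the others of its sex. On Manβ1-4GlcNAcβ (123) the male mouse BALB/c-104 was at 12079.5 RFU, while the next male was at 1709.5 RFU, so that this gap was 0.88 of the range of the 7 males. Groups of this size were tested for the 8 members in males only. The 12 females exceed the size for which the test was set. The ratio was taken on RFU, not on the log2 scale of the paired and sex tests, and no ratio is given on that scale. Chance marks about 1 in 20 such groups if their values are normally distributed, which was not tested. All 6 spots of that mouse lay between 9222 and 23047 RFU, and among females mouse BALB/c-90 was at 10586 RFU on the same glycan.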

How the results depend on the processing

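The 9 called pairs of glycans became 2 in array set 1 alone and 15 in array set 2 alone, and 8 to 9 when 1 mouse was left out. They were 7 with the mean of the spots or with both identical arrays kept, 11 with quantile normalization and 10 on the log2(RFU + 500) scale. The 8 members called against the negative control became 0 in set 1 alone and 7 with signals raised to the buffer spots, and stayed at 8 to 8 without any 1 mouse. No member differed by sex under any alternative (0 to 0 without any 1 mouse). Pairs that differed by sex were 0, but 2 with both identical arrays kept, 2 on the log2(RFU + 500) scale and 0 to 2 without 1 mouse (2 without mouse BALB/c-56 or BALB/c-82, 1 without BALB/c-70). Members with a positive mouse were 3, but 7 at 2000 RFU, 2 at 8000 RFU, 2 with quantile normalization and 0 in set 1 alone. Correlations with the buffer spots were 2, but 0 with the mean of the spots and 3 with both identical arrays kept. No paired analysis of the sexes was possible because a mouse has 1 sex and the replicate numbers name no litter or cage. With both identical arrays kept, 123 over 117 (-1.63, adjusted p = 0.06) and 120 over 018 (-0.39, adjusted p = 0.1) missed the threshold, and with signals raised to the buffer spots Man5 over the negative control did (0.21, adjusted p = 0.4). The difference of 258 over 120 passed on the log2(RFU + 500) scale (-0.32, adjusted p = 0.04), that of 114 over 018 with the mean of the spots (-0.83, adjusted p = 0.043) or quantile normalization (-0.61, adjusted p = 0.043), and that of 123 over 022 with quantile normalization (0.94, adjusted p = 0.048).
Signs turned for differences that had not passed. In set 1 these were 119 over 122 (0.29), 120 over 121 (-0.09), 121 over 122 (0.74), 258 over 120 (0.08), 258 over 122 (0.72), 505 over 495 (0.41) and 114 over 120 (0.11), and, after it had passed, 122 over the negative control (-0.28). In set 2 these were 119 over 120 (0.06), 119 over 121 (0.34), 120 over 122 (-0.48) and 627 over 504 (0.18). With quantile normalization 119 over 121 was 0.05 and 505 over 495 was 0.01, and the female minus male difference was 0.02 for 119, 0.12 for 120, 0.41 for 123 and 0.54 for 495. On the log2(RFU + 500) scale 119 over 121 was 0.05, 120 over 122 was -0.09 and the sex difference of 495 was 0.07. With signals raised to the buffer spots 119 over 121 was 0.05, 120 over 122 was -0.09, 505 over 258 was 0.03 and 505 over 495 was 0.11. Without either identical array 120 over 122 was -0.03 and 114 over 120 was 0.04. For 627 over 504 the mean of the spots gave 0.11 and background subtraction 0.07. With the set of arrays as a term the sex difference was 0.15 for 123 and 0.29 for 495. The cause was not tested. Signals at or near the buffer spots limit what these differences can show.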
